A study of Sus scrofa with 9 samples.

Results

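Pyrimidine nucleotides are either built anew or salvaged, and their bases are finally broken down, and the liver carries out all of these steps. The study named pyrimidine metabolism among the main pathways of its differential genes in low-iron against control. The 10 enzymes described here were chosen by name from the routes of synthesis, salvage and breakdown, with earlier results of these data known. They are CAD, DHODH and UMPS, which make UMP. CTPS1 makes CTP from UTP, and TYMS makes thymidylate. CDA and UPP2 act on pyrimidine nucleosides. DPYD, DPYS and UPB1 break down uracil and thymine. All 10 were found among the 25918 genes of the expression table, and all 10 were among the 12584 genes with a mean of at least 0.5 FPKM over the 9 libraries. FPKM is a fragment count scaled by the length of the transcript and by the mapped fragments of the library. CDA passed this filter with a mean of 0.630 FPKM, helped by 1 high-iron library at 2.24, while its control mean was 0.303.

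New UMP is made from bicarbonate, glutamine and aspartate. CAD, a single large protein, carries the first 3 activities, DHODH in the inner mitochondrial membrane oxidises dihydroorotate, and UMPS adds the ribose phosphate and removes the carboxyl group. Breakdown runs through reduction of the ring by DPYD, opening of the ring by DPYS and release of a beta-amino acid by UPB1, and the liver is a main site of this route. Several iron-dependent proteins stand next to these steps, such as ribonucleotide reductase, and DPYD itself holds iron-sulphur clusters.

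The livers came from 9 Wujin pigs, a Chinese local breed, in 3 groups of 3. All pigs ate the same basal diet, with 0 mg/kg of added iron in the low-iron group, 100 mg/kg in the control group and 200 mg/kg in the high-iron group, given as iron glycinate. Feeding began at 35 days of age and lasted 30 days after 5 days of prefeeding. The pigs were housed singly and the 3 livers per group were picked at random, so each library is 1 animal and is named by its group and animal number. Males and females were both fed in the study, and the sex of each sequenced pig was not used here. The basal diet supplied iron of its own, so the low-iron group was not an iron-free model.

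The number of reads behind a single value was not listed, because the table holds FPKM and no counts. The study lists the mapped reads of each library, which would allow a rough estimate, and these were not used here. The number of genes above 0 ranged from 16235 to 17817 per library. The hepatocyte list (ALB, TTR, APOA1, SERPINA1, TF, CPS1, ASGR1 and HNF4A) summed to 59477 to 86914 FPKM, with ALB at 46231 to 74134 FPKM, as a liver sample should have. Summed markers of Kupffer cells and macrophages were 623 to 764 FPKM in the low-iron, 517 to 738 in the control and 803 to 1030 in the high-iron libraries, with all 7 markers above 0. Markers of T and NK cells summed to 16.9 to 23.1, 16.4 to 25.3 and 26.1 to 45.3 FPKM. For both lists the sums of the high-iron libraries stood above all others. Taken alone, CD68, CSF1R, C1QA and C1QB did so in the Kupffer list, while CD163, MARCO and C1QC overlapped with other groups. In the T and NK list only CD8A did so, while CD3D, CD3E, CD2, NKG7 and GZMA overlapped. The samples were whole liver, so fewer cells of a type and less RNA per cell cannot be told apart.

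A gene was called at a fold change of at least 2 with an unadjusted p under 0.05, the thresholds of the study, here from limma on log2(FPKM + 0.1). On this scale the fold changes of low genes are understated. After Benjamini-Hochberg adjustment over all 12584 genes by limma, 0, 1 and 0 genes passed 0.05 in low-iron against control, high-iron against control and high-iron against low-iron, and 463, 704 and 900 genes had an unadjusted p under 0.05. None of the 10 enzymes passed the adjustment in any of the 3 comparisons: their adjusted p was 0.9998 throughout for low-iron against control, 0.892 to 0.994 for high-iron against control and 0.612 to 0.998 for high-iron against low-iron. The exact permutation test of 3 against 3 libraries cannot go below p = 0.1. An exact F test, which reassigns the 9 libraries to the 3 groups in all ways, can reach 0.00357. The 3 comparisons share their libraries pairwise and are not independent of each other.

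Every call among the 10 enzymes was of CTPS1 or DHODH. Shown here are the 250 bases before the annotated start sites of these genes and of CAD and UMPS. CAD and UMPS belong to the same synthesis routes and were not called. The bases are those of the reference genome and not of these pigs. They were read from Sscrofa11.1 and are written 5′ to 3′ on the strand of the gene, at chr3:111914512-111914761 (minus strand) for CAD, chr6:14942648-14942897 (plus) for DHODH, chr13:135650657-135650906 (minus) for UMPS and chr6:170233106-170233355 (minus) for CTPS1. Capitals mark matches to 3 motifs, searched as these letters and as their reverse complement: the GC-box (letters GGGCGG), the CCAAT-box (the letters of its name) and the TATA-box (letters TATAAA). None of the matches overlap.
CAD: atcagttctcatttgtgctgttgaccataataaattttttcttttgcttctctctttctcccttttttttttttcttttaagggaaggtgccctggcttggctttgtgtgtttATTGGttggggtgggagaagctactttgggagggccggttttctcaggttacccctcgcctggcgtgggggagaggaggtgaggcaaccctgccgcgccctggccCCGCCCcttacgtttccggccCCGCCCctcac
DHODH: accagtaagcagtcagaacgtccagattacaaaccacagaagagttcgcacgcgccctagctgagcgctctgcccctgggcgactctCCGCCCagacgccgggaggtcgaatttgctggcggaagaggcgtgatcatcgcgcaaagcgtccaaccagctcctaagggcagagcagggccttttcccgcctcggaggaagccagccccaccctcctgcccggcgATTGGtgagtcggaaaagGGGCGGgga
UMPS: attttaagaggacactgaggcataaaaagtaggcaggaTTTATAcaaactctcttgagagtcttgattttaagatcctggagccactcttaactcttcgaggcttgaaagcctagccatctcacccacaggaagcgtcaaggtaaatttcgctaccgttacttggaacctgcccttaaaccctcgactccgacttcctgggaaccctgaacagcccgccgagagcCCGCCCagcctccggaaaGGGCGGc
CTPS1: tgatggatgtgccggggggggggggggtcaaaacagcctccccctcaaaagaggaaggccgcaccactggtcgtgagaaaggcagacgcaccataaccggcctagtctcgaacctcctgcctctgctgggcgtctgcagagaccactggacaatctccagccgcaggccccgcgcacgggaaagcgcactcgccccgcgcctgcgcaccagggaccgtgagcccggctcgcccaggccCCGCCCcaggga
The GC-box matched 2 times in CAD, 2 in DHODH, 2 in UMPS and 1 time in CTPS1. Of 19555 pig promoters of this length, 45.9% held it. The CCAAT-box matched once each in CAD and DHODH and was held by 31.9% of all promoters. The TATA-box matched once, in UMPS, against 9.77% of all promoters. The E-box CACGTG, held by 6.39%, had 0 matches in these 4 and 1 match each in TYMS, UPP2 and UPB1. The G+C content was 53.2% in CAD, 63.2% in DHODH, 51.2% in UMPS and 68.8% in CTPS1, around a median of 57.6% over all promoters. These matches describe the letters of the windows and say nothing of which factors bind there.

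CTPS1, the enzyme that aminates UTP to CTP, was highest in the low-iron livers. The gene lies on chromosome 6 at 170201749 to 170233105, minus strand. Its level was 1.08, 1.59 and 3.06 FPKM in low-iron 2, 3 and 7, then 0.528, 0.697 and 0.675 in control 4, 5 and 6, and 0.253, 0.773 and 0.591 in high-iron 2, 7 and 8. The 3 low-iron libraries were above all 6 others, while control and high-iron libraries overlapped. The means were 1.91 ± 1.03, 0.634 ± 0.0921 and 0.539 ± 0.264 FPKM (SD, n = 3 each). CTPS1 was 2.53-fold higher in low-iron than in control livers on the log2(FPKM + 0.1) scale (log2 difference 1.34, SE 0.46, 95% interval 0.31 to 2.36, limma p = 0.0152, exact permutation p = 0.1). It was 3.09-fold lower in high-iron than in low-iron livers (log2 difference -1.63, SE 0.46, interval -2.65 to -0.60, limma p = 0.00514, exact permutation p = 0.1). The difference between high-iron and control was -0.29 (SE 0.46) and was not called. CTPS2, the other CTP synthase gene, had higher group means of 4.75, 4.31 and 4.04 FPKM in low-iron, control and high-iron livers. Its log2 differences were 0.10 for low-iron against control, -0.11 for high-iron against control and -0.22 for high-iron against low-iron. For CTPS2 the groups overlapped and no difference was called. CTPS1 had the smallest p of the exact F test among the 10 enzymes, 0.025, and was the only one of them under 0.05. The other 9 had 0.0643 (CAD) to 0.911 (DPYS). These p-values of the exact F test were not adjusted for the 10 enzymes tested. Without low-iron 7 the difference from control was 0.95 and the call was lost, whereas high-iron against low-iron was called without any single library, between -1.95 and -1.24. Levels near 1 FPKM were also sensitive to the pseudocount: with 1 in place of 0.1 the differences were 0.78 and -0.88 and neither was called. The 6 neutrophil and myeloid markers (S100A8, S100A9, S100A12, CSF3R, MPO and LYZ) summed to 6.04, 10.3 and 7.74 FPKM in the low-iron libraries and 2.14, 3.46 and 4.19 in the control libraries. These sums did not overlap and went in the direction of the CTPS1 call, but each marker taken alone overlapped between low-iron and control. In the high-iron libraries the markers summed to 14.7, 3.95 and 8.11 FPKM, which overlapped with both other groups. High-iron 2 had the highest sum, 14.7 FPKM, and the lowest CTPS1 level, 0.253 FPKM. S100A8 is listed at 0 in low-iron 2, control 5 and control 6, S100A12 in control 5, control 6 and high-iron 8, LYZ in control 4 and control 5, and MPO in low-iron 3, low-iron 7, control 4 and control 6. The part of these cells in the differences of CTPS1 and CAD was not tested. A microRNA gene on the opposite strand, MIR9829, shares 67 of the 3737 exon bases of CTPS1.

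CAD, which starts UMP synthesis, also had its highest group mean in the low-iron livers but was not called. It lies on chromosome 3 at 111887017 to 111914511, minus strand. The level was 0.770, 1.54 and 1.14 FPKM in the low-iron libraries, 0.612, 0.556 and 0.417 in the control libraries and 0.474, 0.779 and 0.489 in the high-iron libraries. All low-iron values were above all control values, and low-iron 2 was just below high-iron 7. The means were 1.15 ± 0.387, 0.528 ± 0.10 and 0.581 ± 0.172 FPKM (SD, n = 3). The log2 difference of low-iron and control was 0.96 (SE 0.39, interval 0.10 to 1.82, limma p = 0.0325, exact permutation p = 0.1), a fold of 1.95 that lies just under the threshold of 2. Without low-iron 2 or control 4 it was 1.20 or 1.06 and was called. High-iron against low-iron gave -0.86 (SE 0.39, limma p = 0.0507, exact permutation p = 0.2), and was called without low-iron 2 (-1.10) or without high-iron 7 (-1.06). High-iron against control gave 0.10 (SE 0.39), a sign that turned under quantile normalization.

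DHODH, the mitochondrial step of the route, had its lowest group mean in the high-iron livers. Its gene spans 14942898 to 14956000 on chromosome 6, plus strand. Levels were 7.0, 12.7 and 8.08 FPKM in low-iron, 11.7, 10.8 and 5.47 in control and 6.68, 1.43 and 4.22 in high-iron libraries. Every high-iron value was below every low-iron value, and control 6 overlapped with the high-iron libraries. High-iron 7 was the lowest of all 9, and the highest library was 8.83 times as high as the lowest. The means were 9.24 ± 3.0, 9.32 ± 3.37 and 4.11 ± 2.63 FPKM (SD, n = 3). DHODH was 2.52-fold lower in high-iron than in control livers (log2 difference -1.33, SE 0.50, interval -2.43 to -0.24, limma p = 0.0219, exact permutation p = 0.2). It was 2.55-fold lower than in low-iron livers (log2 difference -1.35, SE 0.50, interval -2.45 to -0.25, limma p = 0.0207, exact permutation p = 0.1). The low-iron and control levels differed by 0.02 (SE 0.50), with a sign that turned under median-of-ratios and quantile scaling.

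Both DHODH calls rested on single libraries. Without high-iron 7 the differences were -0.73 and -0.74, and neither was called. The call against control was also lost without control 4 (-1.13) or control 5 (-1.19), and the call against low-iron without low-iron 3 (-1.10). Without the filter on low values neither was called, at unchanged differences. The high-iron libraries, the group with the lowest mean of DHODH, were those with the highest sums of Kupffer cell and T and NK cell markers. High-iron 2 had the highest Kupffer sum, 1030 FPKM, and the highest DHODH level of its group, 6.68 FPKM. In the high-iron libraries, summed markers of endothelial cells (109 to 123 against 81.1 to 86.4 FPKM) also lay above the control libraries. So did those of stellate cells (148 to 199 against 68.6 to 143). Low-iron 2 and 7 lay below the high-iron libraries in both lists, but low-iron 3 did not, at 117 and 220 FPKM. Low-iron 3 had the highest stellate sum and the highest DHODH level, 12.7 FPKM, of all 9 libraries. Markers of B and plasma cells (15.3 to 27.9 against 6.12 to 13.1) lay above the low-iron libraries. They also lay above control 5 and 6, but control 4, with DHODH at 11.7 FPKM, was at 24.0. The part of these cells in the differences of DHODH and CTPS1 was not tested. Of the 1689 exon bases of DHODH, 324 are shared with an opposite-strand long non-coding RNA gene, LOC102158108. The libraries were not stated to mark strand, so reads of the pair cannot be told apart there.

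UMPS, which completes UMP, was the most abundant of the synthesis enzymes and varied least among the UMP enzymes, with a highest library 1.88 times the lowest against 3.71 for CAD. The gene lies on chromosome 13 at 135611857 to 135650656, minus strand. It was at 15.3, 23.2 and 17.5 FPKM in the low-iron, 13.3, 17.5 and 12.3 in the control and 13.5, 13.2 and 12.7 in the high-iron libraries. The high-iron libraries lay below all low-iron libraries, and the control libraries spanned both. Means were 18.7 ± 4.10, 14.4 ± 2.72 and 13.1 ± 0.383 FPKM (SD, n = 3). High-iron against low-iron gave a log2 difference of -0.48 (SE 0.20, interval -0.93 to -0.03, limma p = 0.0380, exact permutation p = 0.1), well under a fold of 2 and not called. Low-iron against control gave 0.37 (SE 0.20, limma p = 0.0985, exact permutation p = 0.2), and high-iron against control gave -0.11 (SE 0.20).

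TYMS makes thymidylate for DNA and did not follow the other synthesis enzymes. It lies on chromosome 6 at 105642730 to 105660279, minus strand. Its level was 2.67, 2.68 and 2.96 FPKM in low-iron, 3.83, 3.39 and 3.44 in control and 1.88, 3.21 and 3.74 in high-iron libraries. All low-iron values were below all control values, and the high-iron values spread across both. The log2 differences were -0.35 for low-iron against control (SE 0.25, interval -0.91 to 0.21, limma p = 0.199, exact permutation p = 0.1), -0.32 for high-iron against control (SE 0.25) and 0.03 for high-iron against low-iron, the last with a sign that turned under median-of-ratios and quantile scaling. None was called. The cell division list, 18 genes that mark dividing cells such as MKI67, TOP2A and MCM2, summed to 30.3 to 39.6 FPKM in low-iron, 28.4 to 41.2 in control and 27.8 to 42.0 in high-iron libraries. Of its 17 genes that were tested, 0 were called in any comparison. Of all genes tested, 0.286% to 1.27% were called in a single direction of a comparison.

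**Figure D1:**
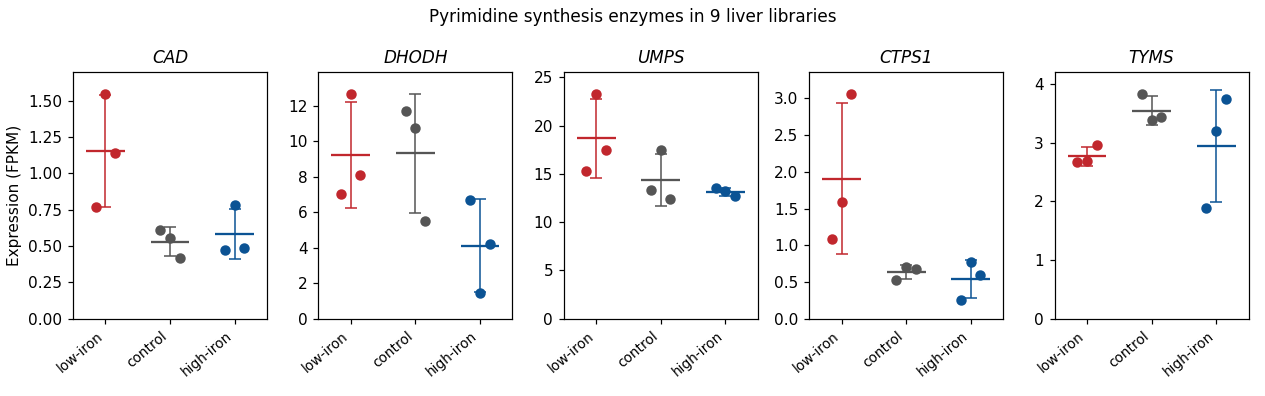
Expression in FPKM of CAD, DHODH, UMPS, CTPS1 and TYMS in the 9 liver libraries, 1 point per library and linear axes from 0. Horizontal lines are group means and bars are the SD of 3 libraries. The 3 low-iron points of CTPS1, at 1.08 to 3.06, lie above all others, and the high-iron points of DHODH, at 1.43 to 6.68, lie below all low-iron points.

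CDA and UPP2 stand between salvage and breakdown. CDA deaminates cytidine and deoxycytidine, and its differences had the largest SE of the 10 enzymes. The gene is on chromosome 6 at 78824248 to 78849154, plus strand. Low-iron 2, 3 and 7 had 0.191, 0.918 and 0.883 FPKM, control 4 and 6 had 0.509 and 0.399, control 5 is listed at 0, and high-iron 2, 7 and 8 had 2.24, 0.331 and 0.201. The groups overlapped in every comparison. The log2 differences were 1.09 for low-iron against control (SE 0.94, interval -0.99 to 3.17), 1.11 for high-iron against control (SE 0.94, interval -0.97 to 3.19) and 0.02 for high-iron against low-iron (interval -2.06 to 2.10), and none was called. The last value was -0.88 without high-iron 2. High-iron 2 also had the highest sum of the neutrophil and myeloid markers, 14.7 FPKM, and the part of these cells in the CDA value was not tested.

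UPP2, the uridine phosphorylase of liver, splits uridine to uracil and was among the abundant enzymes. Its gene runs from 65088652 to 65131739 on chromosome 15, plus strand. It was at 151, 142 and 273 FPKM in low-iron, 73.3, 168 and 67.4 in control and 160, 74.6 and 92.0 in high-iron libraries. Means were 189 ± 73.0, 103 ± 56.4 and 109 ± 44.9 FPKM (SD, n = 3). Control 5 lay within the low-iron values, so the groups overlapped. The log2 difference of low-iron and control was 0.94 (SE 0.40, interval 0.05 to 1.83, limma p = 0.0411, exact permutation p = 0.3), under a fold of 2 and not called. Without control 5 it was 1.36 and was called, as it was without low-iron 2 or low-iron 3. High-iron against control gave 0.13 and high-iron against low-iron -0.80 (SE 0.40, limma p = 0.0728, exact permutation p = 0.3), the latter called only without high-iron 2 (-1.12).

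The 3 enzymes of uracil and thymine breakdown, DPYD, DPYS and UPB1, were not called in any comparison, and none had an unadjusted p under 0.05. DPYD, on chromosome 4 at 119931471 to 120712461, plus strand, catalyses the first and rate-limiting step. It had 44.8, 41.6 and 45.7 FPKM in low-iron, 42.1, 46.4 and 37.0 in control and 41.4, 38.9 and 57.8 in high-iron libraries. It had the narrowest range of the 10 enzymes, with a highest library 1.57 times the lowest. Its log2 differences were 0.08 for low-iron against control (interval -0.34 to 0.50), 0.12 for high-iron against control (-0.30 to 0.54) and 0.04 for high-iron against low-iron (-0.38 to 0.46). All 3 intervals exclude a fold change of 2 in either direction.

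DPYS, dihydropyrimidinase, lies on the same chromosome at 32791152 to 32879489, plus strand. Its level was 263, 152 and 197 FPKM in low-iron, 223, 236 and 155 in control and 121, 227 and 238 in high-iron libraries. The lowest and the highest library of each group lay on both sides of the other groups' means. The log2 differences were -0.02 (interval -0.70 to 0.66), -0.11 (-0.79 to 0.57) and -0.09 (-0.77 to 0.59) for low-iron against control, high-iron against control and high-iron against low-iron.

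UPB1, beta-ureidopropionase, is on chromosome 14 at 49533208 to 49561518, plus strand. It had 289, 153 and 229.8 FPKM in low-iron, 225, 219 and 215 in control and 199, 180.2 and 232 in high-iron libraries. The control libraries were close together, 219.6 ± 4.94 FPKM (SD, n = 3), and the low-iron libraries were spread, 224 ± 68.3 FPKM. The log2 differences in the same order were -0.02 (interval -0.54 to 0.50), -0.12 (-0.64 to 0.40) and -0.10 (-0.62 to 0.42). As for DPYD, the 3 intervals of DPYS and of UPB1 all exclude a fold change of 2, while smaller differences remain possible.

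**Figure D2:**
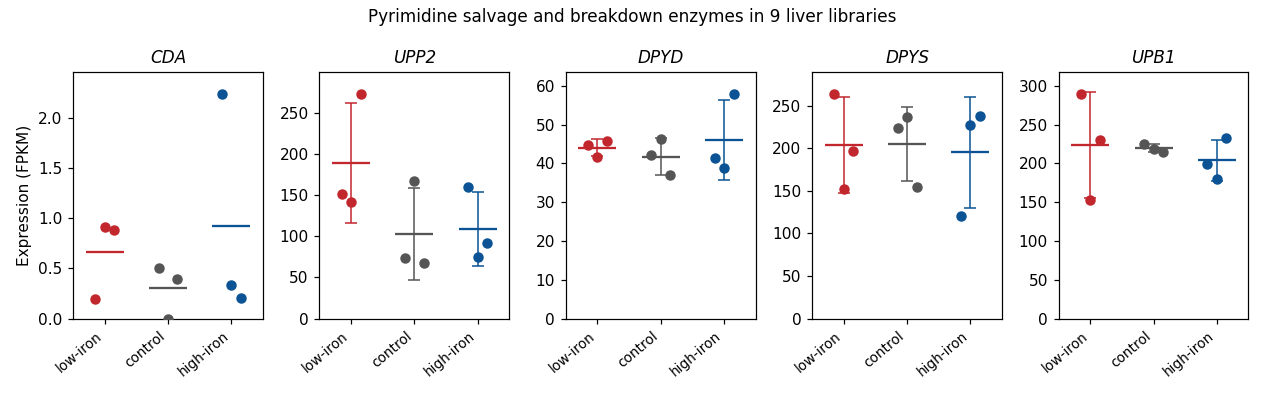
Expression in FPKM of CDA, UPP2, DPYD, DPYS and UPB1 in the 9 liver libraries, 1 point per library and linear axes from 0. Horizontal lines are group means and bars are the SD of 3 libraries, left out for CDA because control 5 is listed at 0. The groups overlap in every panel, and DPYD shows the narrowest spread, from 37.0 to 57.8 FPKM.

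In low-iron against control, 1 of the 10 enzymes, CTPS1, was called higher and 0 were called lower, against 0.596% and 0.286% of all genes tested. The groups did not overlap for 2 enzymes that were higher (CAD and CTPS1) and 1 that was lower (TYMS), against 6.1% and 2.24% of all genes. In high-iron against control, 0 were called higher and 1, DHODH, was called lower, against 1.27% and 0.294% of all genes, and 0 enzymes had groups that did not overlap, against 9.14% of genes higher and 1.76% lower. In high-iron against low-iron, 0 were called higher and 2, DHODH and CTPS1, were called lower, against 1.01% and 0.532% of all genes. Groups did not overlap for 0 higher and 3 lower enzymes (DHODH, UMPS and CTPS1), against 8.11% and 5.13%. With 10 enzymes a single call is a small count to set against these shares. The enzymes were also chosen with earlier results of these data known.

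The 4 genes of UMP and CTP synthesis had a median log2 difference of 0.66 in low-iron against control, where all 4 values were above 0 (3 of 4 under median-of-ratios or quantile scaling, with DHODH turning). The median was -0.20 in high-iron against control, with 1 of 4 above 0 (0 of 4 under quantile normalization), and -1.10 in high-iron against low-iron, with 0 of 4 above 0 under each scaling. These 4 genes were grouped with earlier results of these data known, and TYMS and CTPS2 were left out. In the 3 comparisons TYMS was at -0.35, -0.32 and 0.03, and CTPS2 at 0.10, -0.11 and -0.22. The medians of DPYD, DPYS and UPB1 were -0.02, -0.11 and -0.09. Of all genes tested, 62.7%, 65.0% and 53.6% were above 0 in the 3 comparisons. The medians over all genes tested were 0.08, 0.10 and 0.03. Median-of-ratios scaling moved the second of these to -0.01, so values near 0 in high-iron against control carry a shift of about this size.

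**Figure D3:**
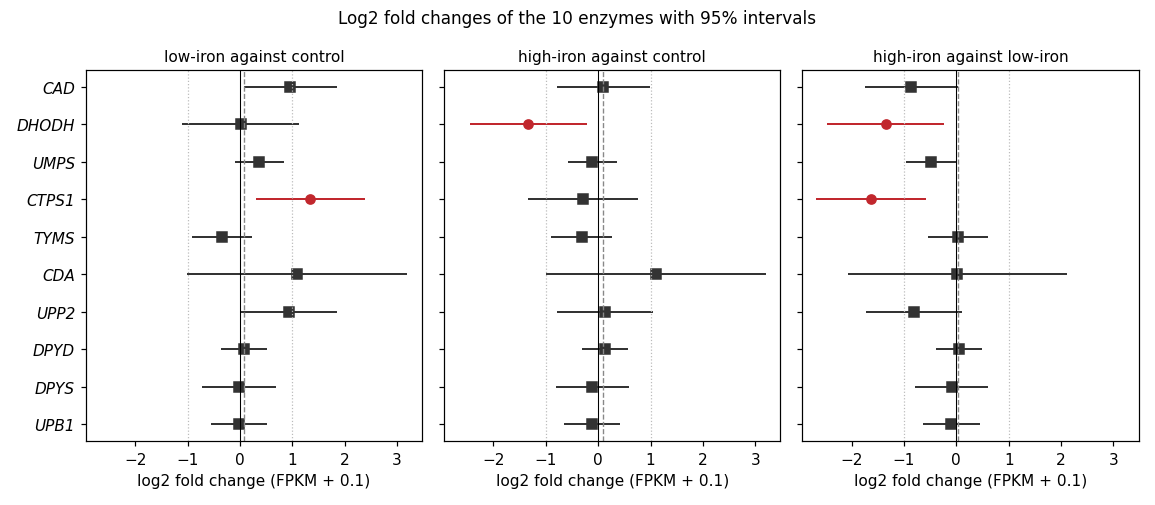
Log2 differences of FPKM + 0.1 for the 10 enzymes in the 3 comparisons, with 95% intervals from limma (3 libraries per group, 1 fit of 9 libraries). Red circles mark called genes, dark squares genes that were not called, dotted lines a fold change of 2 and dashed lines the median of all genes tested. CTPS1 lies at 1.34 and -1.63 in the left and right panels, DHODH at -1.33 and -1.35 in the middle and right panels, and DPYD, DPYS and UPB1 stay near 0 in each.

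FPKM is scaled by transcript length, so the levels of different enzymes can be set side by side. DPYS and UPB1 were at 121 FPKM or more in every library, DPYD at 37.0 to 57.8, UMPS at 12.3 to 23.2, and CAD, CTPS1 and CDA at 3.06 or less. UPP2, at 67.4 to 273, overlapped with DPYS and UPB1. DPYS and UPB1 changed order between libraries, with a ratio of their levels from 0.607 to 1.26. The summed level of DPYD, DPYS and UPB1 was 597, 346 and 473 FPKM in low-iron, 490 (490.4), 502 and 407 in control and 361, 446 and 528 in high-iron libraries. The summed level of CAD, DHODH and UMPS was 23.1, 37.4 and 26.7 FPKM, then 25.7, 28.8 and 18.2, and then 20.6, 15.4 and 17.4. The ratio of breakdown to synthesis sums was 25.9, 9.25 and 17.7 in low-iron, 19.1, 17.4 and 22.3 in control and 17.5, 29.0 and 30.3 in high-iron libraries. Low-iron 3 had the lowest ratio and high-iron 7 and 8 the highest, and the groups overlapped.

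Over the 9 libraries, 7 relations between log2 levels were computed, with exact permutation p-values over all pairings. CAD and UMPS had Pearson r = 0.83 (exact permutation p = 0.00767, adjusted 0.0537) and Spearman rho = 0.70 (exact permutation p = 0.0433, adjusted 0.0881). Without low-iron 3 and 7, the libraries farthest from the median of CAD, r was 0.33, so the relation rests on those animals. With values centred on their group means r was 0.66. DHODH and UMPS had r = 0.57 (exact permutation p = 0.112, adjusted 0.203) and rho = 0.75 (exact p = 0.0255, adjusted 0.0881), with r = 0.55 without the farthest pair of libraries and 0.44 within groups. CAD and DHODH had r = 0.23 (exact permutation p = 0.545, adjusted 0.545) and rho = 0.43 (exact p = 0.250, adjusted 0.250), with r = -0.30 without the farthest pair and -0.04 within groups.

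Among the breakdown enzymes, DPYS and UPB1 had r = 0.57 (exact permutation p = 0.116, adjusted 0.203) and rho = 0.70 (exact p = 0.0433, adjusted 0.0881), with r = 0.37 without the farthest pair of libraries and 0.56 within groups. DPYD and UPB1 had r = 0.40 (exact permutation p = 0.280, adjusted 0.327) and rho = 0.68 (exact p = 0.0503, adjusted 0.0881), with 0.63 and 0.48. DPYD and DPYS had r = 0.47 (exact permutation p = 0.202, adjusted 0.283) and rho = 0.60 (exact p = 0.0968, adjusted 0.136), with 0.34 and 0.54. TYMS and the mean log2 level of the cell division list had r = 0.74 (exact permutation p = 0.0210, adjusted 0.0736) and rho = 0.57 (exact p = 0.121, adjusted 0.141), with r = 0.49 without high-iron 2 and 7 and 0.82 within groups. None of the 7 passed 0.05 after Benjamini-Hochberg adjustment.

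The rest of the pathway was taken from a list of 52 other pyrimidine genes, of which 45 were tested. TYMP was not analysed here. Of these 45, 1 was called higher (UPP1) and 0 lower in low-iron against control, against 0.596% and 0.286% of all genes tested. In high-iron against control 0 were called in either direction, against 1.27% higher and 0.294% lower of all genes. In high-iron against low-iron 1 was called higher (ENTPD3) and 0 lower, against 1.01% and 0.532%. An unadjusted p under 0.05 was reached by 2, 1 and 3 of the 45, against 463, 704 and 900 of all 12584 genes. The median log2 differences of the 45 were 0.07, 0.00 and -0.12, with 27, 23 and 14 of 45 above 0. Of all genes tested, 62.7%, 65.0% and 53.6% were above 0. Under median-of-ratios scaling 22, 16 and 12 of 45 were above 0, so the majority above 0 in low-iron and high-iron against control turned. Of the 18 tested genes of synthesis and interconversion, 11, 9 and 5 were above 0, of the 8 salvage genes 6, 4 and 2, of the 15 nucleotidases, phosphorylases and further breakdown genes 7, 9 and 7, and of the 4 genes near the pathway (CPS1, GLS2, UGP2 and UGDH) 3, 1 and 0.

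UPP1, the second uridine phosphorylase, was much lower than UPP2 in these livers. It was at 2.09, 2.11 and 1.66 FPKM in low-iron, 0.816, 0.857 and 1.09 in control and 2.18, 1.35 and 0.705 in high-iron libraries. All low-iron values were above all control values. The log2 difference was 1.01 (SE 0.37, limma p = 0.0200, adjusted p = 0.9998, exact permutation p = 0.1), just past the threshold. It was not called without low-iron 2, low-iron 3, control 4 or control 5, and the difference ranged from 0.94 to 1.13 over the single libraries left out. The summed neutrophil and myeloid markers moved the same way, at 6.04 to 10.3 FPKM in low-iron against 2.14 to 4.19 in control libraries. Each marker taken alone overlapped between these groups. High-iron 2 was the highest library for both UPP1 and the sum (14.7 FPKM). The part of these cells in the UPP1 difference was not tested. The call was also lost under median-of-ratios (0.94) and quantile scaling (0.93) and with a pseudocount of 1 (0.62). ENTPD3, an ectonucleotidase that removes phosphates from extracellular nucleotides, was at 0.177, 0.382 and 0.594 FPKM in low-iron, 0.491, 0.582 and 0.719 in control and 0.848, 1.77 and 1.12 in high-iron libraries. The high-iron values were above all others. ENTPD3 had group means of 0.385, 0.597 and 1.25 FPKM, so it passed the filter of 0.5 FPKM with the help of the high-iron group. A minimum of 1 FPKM left it out of the test. High-iron against low-iron gave 1.52 (SE 0.45, limma p = 0.00706, adjusted p = 0.615, exact permutation p = 0.1), and 0.69 and not called with a pseudocount of 1. The other differences of ENTPD3, -0.61 for low-iron and 0.91 for high-iron against control, had the smallest p of their direction in the list and were not called (limma p = 0.208 and 0.0730, exact permutation p = 0.3 and 0.1).

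CPS1, the mitochondrial carbamoyl phosphate synthetase of the urea cycle, had the smallest unadjusted p among the other pyrimidine genes in high-iron against control. Its level was 792, 493 and 640.3 FPKM in low-iron, 780.1, 843 and 722 in control and 331, 449 and 513 in high-iron libraries. The high-iron values were below all control values. The log2 difference was -0.88 (SE 0.24, limma p = 0.00416, adjusted p = 0.885, exact permutation p = 0.1), a fold of 1.84 that was not called. Against low-iron the difference was -0.57 (SE 0.24, limma p = 0.0385, exact permutation p = 0.2). CPS1 serves the urea cycle, and the carbamoyl phosphate used for pyrimidines is made by CAD in the cytosol.

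**Figure D4:**
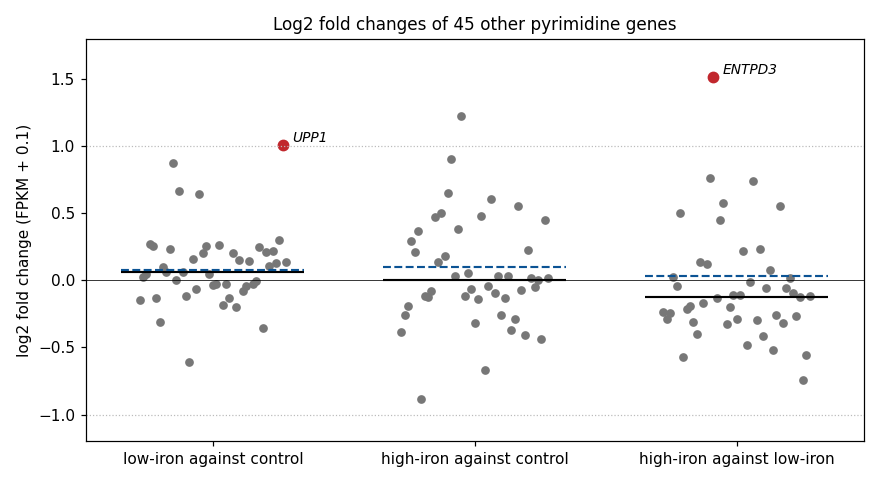
Log2 differences of FPKM + 0.1 for the 45 other pyrimidine genes tested, 1 point per gene in each comparison. Solid lines are the medians of the list, dashed lines the medians of all genes tested and dotted lines a fold change of 2. Red points are called genes, UPP1 at 1.01 and ENTPD3 at 1.52, and the list medians lie at 0.07, 0.00 and -0.12.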

How the data were processed

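Liver RNA of 9 Wujin pigs was sequenced on an Illumina platform from poly(A)-selected libraries. The authors trimmed the reads, mapped them to the pig genome (Sscrofa11.1) with Hisat2 and assembled transcripts with StringTie. The deposited values are FPKM, 1 column per library, with no counts. The number of reads behind a value is therefore not listed, and no count model was fitted. Groups were taken from the library titles and the series' design text.

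The 20660 numbered rows were named by their serial number among the gene and pseudogene lines of NCBI annotation release 106. All 20660 fell on protein-coding genes, against 15031 after a shift of the numbering by 1. Values were analysed as log2(FPKM + 0.1) in R 4.3.3 with limma 3.58.1 (1 linear fit of the 3 groups, empirical Bayes with trend), over the 12584 genes with a mean of at least 0.5 FPKM. The procedure was tested on simulated data. Exact permutation tests, correlations and promoter windows used Python 3.11.15, numpy 2.4.6, pandas 2.3.3 and scipy 1.17.1. Enzymes, lists, tests and alternatives were chosen with earlier results of these data known. Named genes were the 10 enzymes and, of the other pyrimidine genes, each called gene and the gene with the smallest unadjusted p in each direction of each comparison. CTPS2 was named in addition, beside CTPS1. Alternatives were pseudocounts of 1 and 0.01, no filter, a minimum of 1 FPKM, TPM, median-of-ratios and quantile scaling, separate fits of each pair of groups, weights by array quality, a block for the animal number, and each library left out in turn.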

Additional observations from a re-analysis of the deposited data

How the results depend on the processing

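Each result was recomputed under other settings, of which 716 kept direction and side of the threshold, 18 moved past it, 23 fell short of it, 31 counts moved by over 1.5 times and 41 turned in sign. The cause of these changes was not tested, and the number of reads behind each value was not estimated. Of the 10 enzymes, 1 was called in low-iron against control; with a pseudocount of 1 it was 0, and with a pseudocount of 0.01, TPM or array weights 2, and leaving out single libraries gave 0 to 3. In high-iron against control 1 was called, 0 without the filter and 0 to 1 over libraries left out. In high-iron against low-iron 2 were called, 1 with a pseudocount of 1, 1 without the filter and 1 to 3 over libraries left out (1 without low-iron 3, 3 without low-iron 2 or high-iron 2). Of the other pyrimidine genes, 1, 0 and 1 were called. In low-iron against control this became 0 with a pseudocount of 1, median-of-ratios or quantile scaling (0 to 1 over libraries left out), in high-iron against control 1 with array weights (0 to 1), and in high-iron against low-iron 0 with a pseudocount of 1 or a minimum of 1 FPKM (1 to 2).

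Signs turned only for differences that were not called. For low-iron against control, DHODH was -0.0632 with median-of-ratios, -0.0691 with quantile scaling and -0.17 with array weights (-0.33 to 0.22 over libraries left out), DPYD -0.0073 with quantile scaling (-0.0045 to 0.16), DPYS 0.0521 (-0.22 to 0.18) and UPB1 0.0782 with array weights (-0.23 to 0.23). For high-iron against control, CAD was -0.0905 with quantile scaling (-0.10 to 0.21) and DPYS 0.029 with array weights (-0.30 to 0.21), and libraries left out gave -0.22 to 0.0335 for UMPS, -0.56 to 0.0904 for CTPS1, -0.18 to 0.55 for UPP2 and -0.0512 to 0.23 for DPYD. For high-iron against low-iron, TYMS was -0.0022 with median-of-ratios and -0.06 with quantile scaling (-0.16 to 0.31), CDA -0.0126 with a pseudocount of 0.01, -0.0231 with quantile scaling and -0.28 with array weights (-0.88 to 0.60), and libraries left out gave -0.13 to 0.15 for DPYD, -0.29 to 0.22 for DPYS and -0.35 to 0.11 for UPB1. Pearson r of CAD and DHODH ranged from -0.0557 to 0.58.

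The low-iron and high-iron groups share the animal numbers 2 and 7, which are different pigs. Deviations of same-numbered libraries correlated at 0.018 and 0.021, within the -0.16 to 0.16 of the differently numbered pairs computed. These values gave no sign of a pairing by number, but cannot tell whether pigs shared a litter or a batch. With the number as a replicate block, 1 of the 10 enzymes was called in high-iron against low-iron, TYMS was -0.18 and DPYD -0.17. Low-iron 3 and high-iron 8 have no partner of the same number, so this fit rests on the libraries numbered 2 and 7.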
